A study of Mus musculus with 10 samples.

Results

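Messenger RNA of 10 genes that make, break down or regulate polyamines was followed in ASZ001 cells, a mouse basal cell carcinoma line that resists inhibitors of Smoothened, after inhibition of TGFß receptor or AP-1 signaling. The genes are the arginases Arg1 and Arg2, the synthetic enzymes Odc1, Amd1, Srm and Sms, the acetyltransferase Sat1, the antizymes Oaz1 and Oaz2 and the antizyme inhibitor Azin1. They were looked up by symbol, and all 10 were found among the 17658 genes listed in the table of the first experiment and the 16719 listed in that of the second. Arg1 was put on the list because it was lower with both inhibitors, so its difference from DMSO is described and not tested.

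All libraries came from ASZ001 cells in low-serum medium, and treatments lasted 24 h. In the first experiment, 3 cultures received 10 µM SB431542, an inhibitor of the TGFß receptor kinase ALK5, and 3 received the DMSO vehicle. In the second, 2 cultures received 20 µM T-5224, an inhibitor of AP-1, and 2 received DMSO. Each inhibitor was used at 1 dose in 1 cell line. The experiments share no library and their tables were normalized separately, so no inhibitor was set against the DMSO cultures of the other experiment.

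Values are RPKM, a gene's reads scaled by the length of its transcript and by the mapped reads of its library. Depth was estimated at 31.9 to 51.4 M reads per library. Fold changes are differences of mean log2(RPKM + 0.5), which understates the change of genes at low RPKM. They were tested with limma over every gene with a mean of at least 1 RPKM, and a gene is called lower or higher at a Benjamini-Hochberg adjusted p under 0.05. DMSO replicate 1 of the SB431542 experiment stood apart from the other DMSO libraries, with an SD of 0.27 of its log2 deviations over genes, beside 0.16 and 0.19 for replicates 2 and 3. All 7 keratinocyte markers examined were above 1 RPKM in both experiments. Their summed level was 9342 to 9506 RPKM with DMSO and 6567 to 7035 RPKM with SB431542, and 11870 to 12510 RPKM with DMSO and 1826 to 1893 RPKM with T-5224. Krt5 and Krt14 make up most of this sum, and the other markers differed in direction. Epcam was at 112 to 115 RPKM with DMSO and 131 to 137 RPKM with SB431542, and at 68.1 to 73.3 RPKM with DMSO and 123 to 126 RPKM with T-5224. Krt15 lay above its DMSO level with SB431542, and Dsg3 above it with T-5224. Dsg3 lay below its DMSO level with SB431542, where Trp63 and Cdh1 overlapped theirs. Krt15 was at 50.8 to 55.1 RPKM with DMSO and 1.40 to 1.44 RPKM with T-5224. Trp63 and Cdh1 also lay below their DMSO levels with T-5224. The part of this in the changes described here was not tested. In bulk RNA, fewer cells of a type and less RNA per cell cannot be told apart.

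Polyamines are small, positively charged molecules that bind RNA and DNA and are needed by dividing cells. Arginase turns arginine into ornithine and urea, ornithine decarboxylase (Odc1) turns ornithine into putrescine, and spermidine synthase (Srm) and spermine synthase (Sms) extend putrescine to spermidine and then spermine with aminopropyl groups that Amd1 supplies from S-adenosylmethionine. Sat1 acetylates spermidine and spermine for export or breakdown. Antizymes bind ornithine decarboxylase and direct it to the proteasome, and the antizyme inhibitor binds antizymes in its place. In skin, ornithine decarboxylase is well known for its part in tumor growth.

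Sequence upstream of the start site was at hand in RefSeq for 6 of the 10 genes (Odc1, Amd1, Sms, Sat1, Oaz1 and Oaz2), with Sms given 2 starts. Arg1, Arg2, Srm and Azin1 had no entry. The 250 bases before each start (GRCm38.p6, mouse) were searched on both strands for the AP-1 site TGANTCA, the E-box CACGTG, the CREB/ATF site TGACGTCA, the ATF4-CEBP composite TGATGNAA and the SMAD palindrome GTCTAGAC. Of 32851 promoters of the same length, 6.75%, 6.02%, 1.55%, 3.45% and 0.167% held these letters, in that order. Among the 7 windows of the genes described here, the only match was 1 E-box, which begins at position -196 from the upstream start of Sms. The window of Odc1 (chr12:17544623-17544872, plus strand) and that of Sat1 (chrX:155216450-155216699, minus strand) are shown because both genes rose with both inhibitors, and that of Sms (chrX:157492288-157492537, minus strand) for its match. Each reads 5′ to 3′ and capitals mark the E-box.
Odc1: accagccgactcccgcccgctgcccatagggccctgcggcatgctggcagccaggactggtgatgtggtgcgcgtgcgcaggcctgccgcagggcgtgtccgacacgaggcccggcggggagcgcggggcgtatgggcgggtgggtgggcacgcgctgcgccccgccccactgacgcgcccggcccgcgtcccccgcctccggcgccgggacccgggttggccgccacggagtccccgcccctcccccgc
Sat1: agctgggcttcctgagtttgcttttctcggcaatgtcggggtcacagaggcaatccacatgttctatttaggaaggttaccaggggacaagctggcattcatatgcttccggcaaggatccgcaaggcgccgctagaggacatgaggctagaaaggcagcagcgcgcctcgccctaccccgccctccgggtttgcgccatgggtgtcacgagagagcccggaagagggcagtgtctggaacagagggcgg
Sms: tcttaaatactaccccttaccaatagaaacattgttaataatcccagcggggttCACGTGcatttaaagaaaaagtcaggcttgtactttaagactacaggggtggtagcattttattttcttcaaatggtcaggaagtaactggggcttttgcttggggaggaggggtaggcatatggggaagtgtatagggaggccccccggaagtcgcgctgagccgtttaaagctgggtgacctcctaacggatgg
A match is a run of letters and does not show binding, and the lack of one concerns only these letters in this window.

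The members were spread widely with DMSO, over 3 orders of magnitude in the SB431542 experiment and less in the T-5224 experiment. In the SB431542 experiment, Oaz1 had the highest level of the 10 genes at 258 ± 59.6 RPKM (SD, n = 3). Amd1 followed at 64.6 RPKM and Srm at 54.0 RPKM, with overlapping ranges. Odc1 was next at 43.7 RPKM. Oaz2 at 30.7 RPKM and Azin1 at 24.8 RPKM overlapped. Sat1 at 19.7 RPKM, Sms at 8.71 RPKM, Arg1 at 6.34 RPKM and Arg2 at 0.167 RPKM each lay below the gene before it with no overlap. Beside T-5224, the order with DMSO from the top was Oaz1 at 38.4 RPKM, Srm at 34.9 RPKM, Oaz2 at 28.4 RPKM, Sat1 at 18.6 RPKM, Azin1 at 13.9 RPKM and Amd1 at 11.0 RPKM. Odc1 at 5.35 RPKM and Arg1 at 5.27 RPKM overlapped there, followed by Sms at 2.59 RPKM and Arg2 at 0.123 RPKM. Arg1 stood far above Arg2 in every DMSO library.

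**Figure D1:**
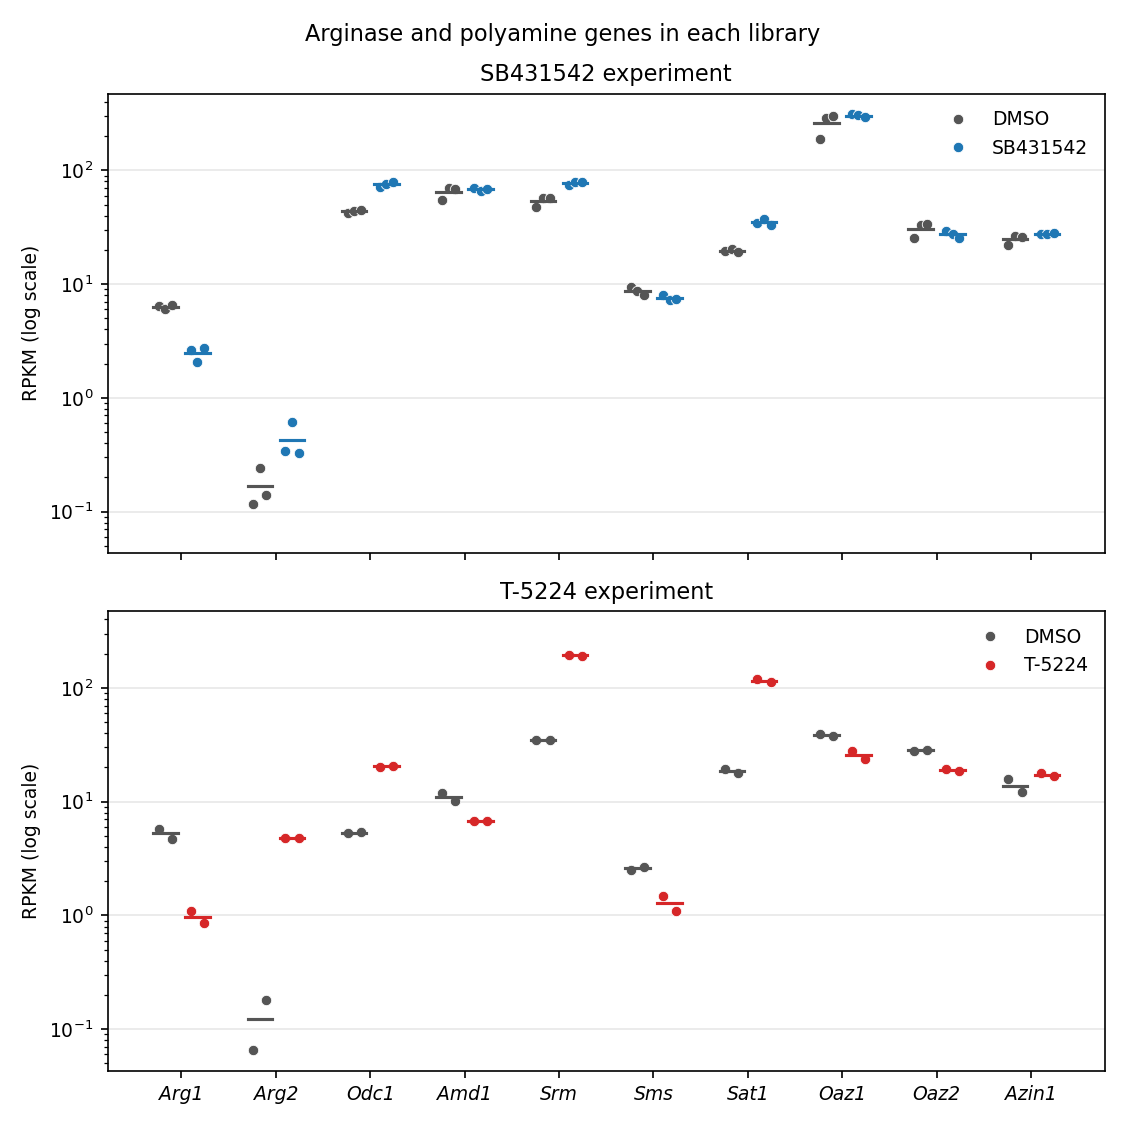
RPKM of the 10 genes on a log axis in every library, with the SB431542 experiment above and the T-5224 experiment below. Points are libraries and short lines are group means. Arg2 lies at 0.066 and 0.179 RPKM in the DMSO libraries of the lower panel and at 4.84 and 4.82 RPKM with T-5224, where Arg1 lies at 1.09 and 0.861 RPKM.

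With DMSO, some levels differed widely between the experiments, although cells, vehicle and medium are described alike. The DMSO mean of Odc1 was 8.16 times as high in the SB431542 table as in the T-5224 table, that of Oaz1 6.72 times, that of Amd1 5.86 times and that of Sms 3.36 times. For Azin1, Srm, Arg2, Arg1, Oaz2 and Sat1 the ratio was between 1.06 and 1.79. Over the 10325 genes at 1 RPKM or more with DMSO in both tables, the median ratio was 0.986, the 95th percentile was 3.22, and 397 genes (3.85%) were over 4-fold.

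Copies of these genes elsewhere in mm9, the genome build to which the authors aligned, were counted beside these ratios. Of the longest transcript of Odc1, 96.1% was found again at other loci at 95% identity or more, 96.9% of that of Oaz1, 99.8% of that of Amd1 and 44.4% of that of Sms. The share was also high for Oaz2 at 98.3% and Sat1 at 73.2%, whose DMSO levels hardly differed between the tables, and it was 0 for Arg1, Arg2, Srm and Azin1. The part of shared sequence in the differences between tables was not tested. Reads of Odc1, Oaz1, Amd1, Sms, Oaz2 and Sat1 may be split with these copies, so their levels are uncertain and their changes are read only within a table. Amd1 and its copy Amd2 differed by at most 0.189% and 0.287% of their values in any library of the SB431542 and T-5224 tables, so the listed values of that pair are in effect 1 measurement.

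**Figure D2:**
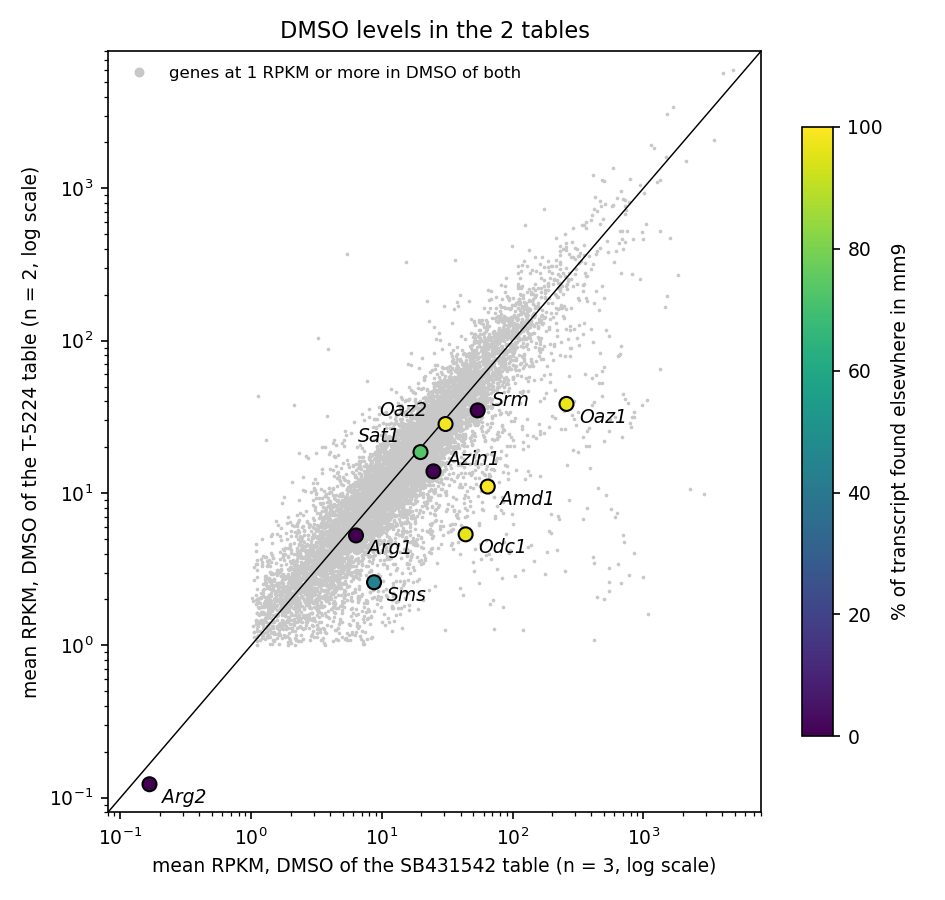
Mean RPKM with DMSO in the SB431542 table (x axis, n = 3) against the T-5224 table (y axis, n = 2), both on log axes. Grey points are genes at 1 RPKM or more in both, the line marks equal levels, and color gives the percentage of each gene's longest transcript found elsewhere in mm9. Odc1, Oaz1, Amd1 and Sms lie well to the right of the line, and Oaz2 and Sat1 lie on it.

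Arg1, the cytosolic arginase (mm9 chromosome 10, 24635014 to 24647276, minus strand, 8 exons), fell below its DMSO level with both inhibitors, as it was chosen to. It was at 6.43, 6.04 and 6.53 RPKM in the 3 DMSO libraries and at 2.64, 2.08 and 2.72 RPKM with SB431542. In the other experiment it was at 5.78 and 4.75 RPKM with DMSO and at 1.09 and 0.861 RPKM with T-5224. All treated libraries lay below all DMSO libraries of their table. The treated mean was 0.391 of the DMSO mean with SB431542, a log2 difference of -1.21, and 0.185 of it with T-5224, a log2 difference of -1.97. About 342 to 435 reads stood behind each DMSO value and 127 to 197 behind each SB431542 value in the first experiment, and 272 and 63 to 82 in the second.

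Arg1 is also a well known marker of alternatively activated macrophages. The macrophage genes Ptprc and Csf1r were at most at 0.012 RPKM in any library that lists them, Mrc1 at most at 0.025 RPKM and Lyz2 at most at 0.077 RPKM. Only Cd68 and Cd14 of the macrophage markers reached 1 RPKM. The summed marker level was 9.31 to 12.4 RPKM with DMSO and 9.85 to 10.2 RPKM with SB431542, and 19.2 to 21.4 RPKM with DMSO and 35.4 to 35.5 RPKM with T-5224. Among markers of other cell types, only Dcn of the fibroblast list and Pecam1 of the endothelial list reached 1 RPKM, and none of the hepatocyte list did. Pecam1 was at 5.23 to 6.57 RPKM with DMSO and 2.60 to 2.83 RPKM with SB431542, and at 10.7 to 11.8 RPKM with DMSO and 4.11 to 4.67 RPKM with T-5224. Dcn was at 2.07 to 2.21 RPKM with DMSO and 3.53 to 4.002 RPKM with SB431542, and at 1.75 to 2.03 RPKM with DMSO and 2.42 to 2.67 RPKM with T-5224. Their part in the levels of Arg1 was not tested.

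Among 10461 other genes tested in both tables, the 5 whose pair of log2 fold changes lay nearest to that of Arg1 were Irf9, Flrt2, Pdgfb, Ifi27l2a and Parp9. Likeness was the distance between the pairs over the 2 comparisons. Irf9 was nearest, at -1.22 with SB431542 and -1.82 with T-5224, and Parp9 was the fifth, at -1.09 and -2.15.

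Arg2, the mitochondrial arginase (chromosome 12, 80231764 to 80257288, plus strand), moved the other way. It was at 0.066 and 0.179 RPKM with DMSO and at 4.84 and 4.82 RPKM with T-5224. Both T-5224 libraries lay far above both DMSO libraries. Arg2 reached the mean of 1 RPKM needed for testing only through the T-5224 libraries, so it could enter that test only as a gene that rose. In the fit over all listed genes, with no such limit, the rise was 3.10 ± 0.13 on the log2 scale (SE, adjusted p = 0.000104, limma). Its DMSO values rest on about 13 reads in all and its T-5224 values on about 695, a depth-corrected ratio of 37.5 (95% exact conditional binomial interval 21.8 to 70.8, counting error only).

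With SB431542, Arg2 was at 0.343, 0.609 and 0.328 RPKM, beside 0.117, 0.244 and 0.139 RPKM with DMSO. The groups did not overlap, but every library stayed below 1 RPKM and the gene was not tested in the main comparison. In the fit over all listed genes its log2 fold change was 0.47 ± 0.13 (SE) and did not pass (adjusted p = 0.0807, limma). About 31 reads in all lay behind the DMSO values and 81 behind the SB431542 values.

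The ratio of Arg1 to Arg2 within a library sets the 2 arginases against each other free of library scaling. It was 24.8 to 55.0 with DMSO and 3.41 to 8.29 with SB431542. In the other experiment it was 26.5 to 87.6 with DMSO and 0.179 to 0.224 with T-5224. Arg2 was thus the more abundant arginase transcript per length in both T-5224 libraries and the less abundant one in all other libraries. This ratio holds Arg1 and was not tested.

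Beside the arginases, 3 genes rose with SB431542. These were Odc1, Srm and Sat1, out of 8 members tested other than Arg1, and 10.2% of all 10842 genes tested were higher and 20.2% passed in either direction. None of the 8 was lower, beside 10.0% of all genes. Sms alone of the 8 was lower at an unadjusted p under 0.05. At least 10.0% of all genes were lower at that looser limit, since each gene that passes after adjustment passes it too. None of the 8 passed with a log2 fold change beyond 1, which 0.231% of genes did upward and 0.581% downward.

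With T-5224, Arg1 and Arg2 are set aside in the counts, the first for how it was chosen and the second for how it came to be tested. The other 8 members passed, where 79.7% of all 10809 genes tested did. The 4 that were higher (Odc1, Srm, Sat1 and Azin1) stand beside 40.3% of all genes, and the 4 that were lower (Amd1, Sms, Oaz1 and Oaz2) beside 39.4%. Treated and DMSO libraries did not overlap in any of the 8, as in 89.7% of all genes. These shares are near the background, so passing the test does not set these genes apart. Beyond a log2 fold change of 1, 3 of the 8 were higher, where 10.4% of all genes were, and 0 were lower, where 10.6% were. The median log2 fold change of the 8 was -0.13 with T-5224, beside 0.003 over all genes tested, and 0.21 with SB431542, beside 0.008.

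**Figure D3:**
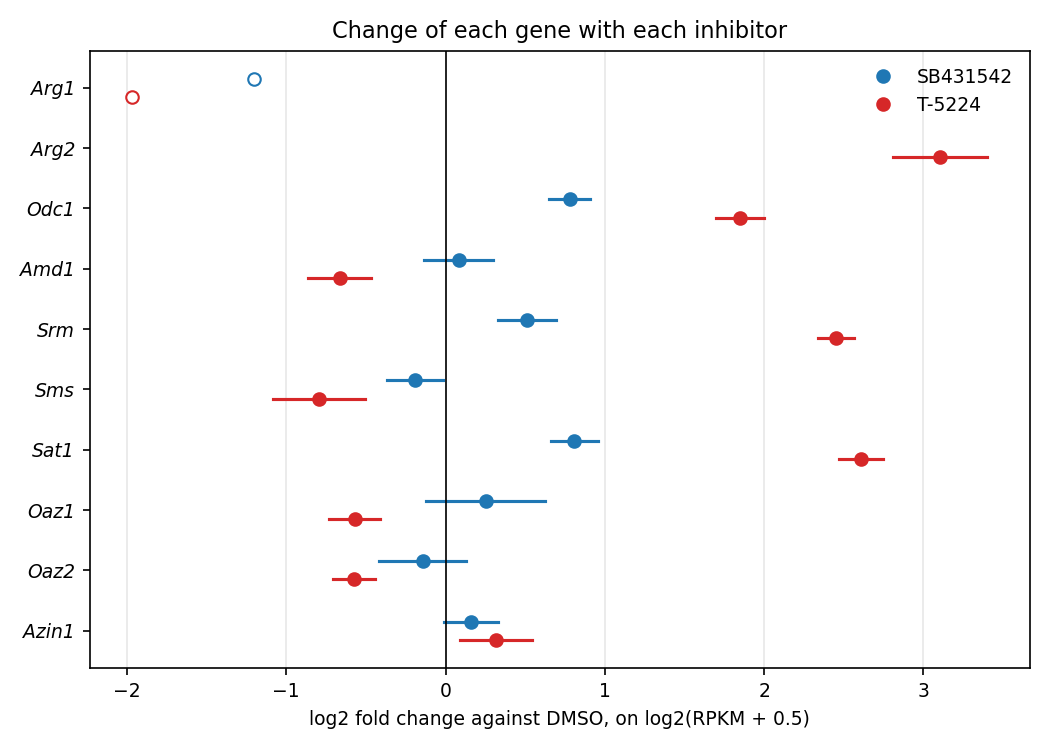
Log2 fold change against DMSO on log2(RPKM + 0.5) for each gene with SB431542 (blue) and T-5224 (red), where lines are 95% intervals from limma. Open circles give Arg1, which was chosen on these differences and has no interval, Arg2 with SB431542 was below the level for testing, and Arg2 with T-5224 reached it only through the T-5224 libraries. Odc1, Srm and Sat1 lie to the right of 0 with both inhibitors, and Amd1, Sms, Oaz1 and Oaz2 lie to the left of it with T-5224.

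Of the synthetic enzymes, Odc1 and Srm rose and Sms and Amd1 did not. Odc1 (chromosome 12, 17551679 to 17558308), the enzyme that makes putrescine, was at 42.3, 44.0 and 44.9 RPKM with DMSO and at 71.4, 76.3 and 78.4 RPKM with SB431542. The rise of 1.72-fold, or 0.78 ± 0.06 on the log2 scale (SE, adjusted p = 0.000269, limma), was higher than 99.4% of genes tested. In the T-5224 experiment it was at 5.33 and 5.38 RPKM with DMSO and at 20.4 and 20.8 RPKM with T-5224. The groups did not overlap in either experiment, and the rise with T-5224 was 3.84-fold (log2 1.85 ± 0.07, adjusted p = 6.88e-10, limma).

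Srm (chromosome 4, 147965612 to 147969102), which makes spermidine and has no copy in mm9 by the search above, was at 47.9, 57.0 and 57.1 RPKM with DMSO. It was at 73.8, 79.0 and 78.4 RPKM with SB431542, above every DMSO library. The log2 fold change was 0.51 ± 0.08 (SE, adjusted p = 0.00574, limma). With T-5224 it was at 194 and 192 RPKM, beside 34.8 and 34.9 RPKM with DMSO, a 5.54-fold difference (log2 2.45 ± 0.05, adjusted p = 7.14e-12, limma). By the listed values, Srm thereby had the highest level of the 10 genes in the T-5224 libraries. The levels of Oaz1, Sat1 and the other genes with copies are uncertain, as stated above, so this rank is too.

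Sms (chromosome X, 153881787 to 153930219), which makes spermine from the product of Srm, was at 9.35, 8.74 and 8.04 RPKM with DMSO and at 8.09, 7.27 and 7.34 RPKM with SB431542. The ranges overlapped, and the log2 fold change of -0.19 (95% interval -0.37 to -0.01) did not pass after adjustment (adjusted p = 0.117, limma). With T-5224 it was at 1.49 and 1.10 RPKM, below 2.51 and 2.67 RPKM with DMSO, and fell by 0.80 ± 0.13 on the log2 scale (SE, adjusted p = 0.000159, limma). Its level there is near the 1 RPKM limit.

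Amd1 (chromosome 10, 40007265 to 40021992), the S-adenosylmethionine decarboxylase, was at 55.0, 69.8 and 68.8 RPKM with DMSO and at 69.3, 66.5 and 68.2 RPKM with SB431542. The groups overlapped and the log2 fold change was 0.08 (95% interval -0.13 to 0.30, adjusted p = 0.558, limma). Without DMSO replicate 1, the lowest of the 3, it was -0.03. With T-5224 it was at 6.75 and 6.73 RPKM, beside 12.0 and 10.1 RPKM with DMSO, and fell by 0.67 ± 0.09 (SE, adjusted p = 3.08e-05, limma).

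Within a library, the ratio of Srm to Sms was 5.13 to 7.11 with DMSO and 9.12 to 10.9 with SB431542, and 13.1 to 13.8 with DMSO and 131 to 174.5 with T-5224. The groups did not overlap in either experiment. An exact permutation test over libraries gave p = 0.1 for SB431542 and p = 0.333 for T-5224 (two-sided), the smallest values that 3 against 3 and 2 against 2 libraries allow.

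Sat1 (chromosome X, 151647675 to 151650992), the acetyltransferase that starts polyamine breakdown, rose together with the synthetic enzymes Odc1 and Srm. It was at 19.5, 20.5 and 19.2 RPKM with DMSO and at 34.6, 37.4 and 32.9 RPKM with SB431542, a 1.77-fold difference (log2 0.81 ± 0.06, adjusted p = 0.000354, limma). With T-5224 it was at 119 and 112 RPKM, beside 19.3 and 17.8 RPKM with DMSO. This 6.23-fold difference (log2 2.61 ± 0.06, adjusted p = 1.78e-11, limma) followed that of Arg2 as the second in size among the 10 genes. All treated libraries lay above all DMSO libraries in both experiments.

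The antizymes and the antizyme inhibitor, which act on the ornithine decarboxylase protein, had smaller log2 fold changes than Odc1 itself. Oaz1 (chromosome 10, 80289401 to 80292035) was at 189.8, 287.6 and 297.8 RPKM with DMSO and at 310.3, 304.7 and 291.4 RPKM with SB431542. The groups overlapped, DMSO replicate 1 lay well below the rest, and the log2 fold change of 0.25 (95% interval -0.12 to 0.63) did not pass (adjusted p = 0.292, limma). It was 0.05 without that library. With T-5224, Oaz1 was at 27.7 and 23.9 RPKM, below 39.1 and 37.8 RPKM with DMSO, and fell by 0.57 ± 0.07 (SE, adjusted p = 1.86e-05, limma).

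Oaz2 (chromosome 9, 65515808 to 65538107) was at 25.2, 33.3 and 33.6 RPKM with DMSO and at 29.5, 27.7 and 25.5 RPKM with SB431542. Here too the groups overlapped through DMSO replicate 1. The log2 fold change was -0.14 (95% interval -0.41 to 0.13, adjusted p = 0.415, limma), and without that library it was -0.28 and passed (adjusted p = 0.00698, limma). With T-5224 it was at 19.4 and 18.4 RPKM, below 28.1 and 28.6 RPKM with DMSO, and fell by 0.57 ± 0.06 (SE, adjusted p = 4.11e-06, limma).

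Azin1 (chromosome 15, 38417185 to 38449021) was at 22.2, 26.2 and 26.0 RPKM with DMSO and at 27.5, 27.3 and 28.2 RPKM with SB431542. The SB431542 libraries lay above the DMSO libraries, as 45.1% of all genes had groups without overlap in 1 direction or the other, but the log2 fold change of 0.16 (95% interval -0.01 to 0.33) did not pass (adjusted p = 0.165, limma). With T-5224 it was at 17.9 and 16.7 RPKM, beside 15.7 and 12.1 RPKM with DMSO, a log2 fold change of 0.32 ± 0.10 (SE, adjusted p = 0.0136, limma). That call was lost without DMSO replicate 2 (log2 0.14, adjusted p = 0.124, limma) and without T-5224 replicate 1 (log2 0.27, adjusted p = 0.0854, limma).

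The ratio of Odc1 to Oaz1 within a library was 0.151 to 0.223 with DMSO and 0.230 to 0.269 with SB431542, and 0.136 to 0.142 with DMSO and 0.736 to 0.871 with T-5224. The groups did not overlap, and the exact permutation test gave the smallest p allowed, 0.1 and 0.333. The highest DMSO ratio of the first experiment was that of replicate 1, where Oaz1 was lowest. The ratio of Azin1 to Oaz1 overlapped between DMSO (0.0873 to 0.117) and SB431542 (0.0885 to 0.0967, exact permutation p = 0.7), and was 0.319 to 0.401 with DMSO and 0.646 to 0.701 with T-5224 (exact permutation p = 0.333).

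**Figure D4:**
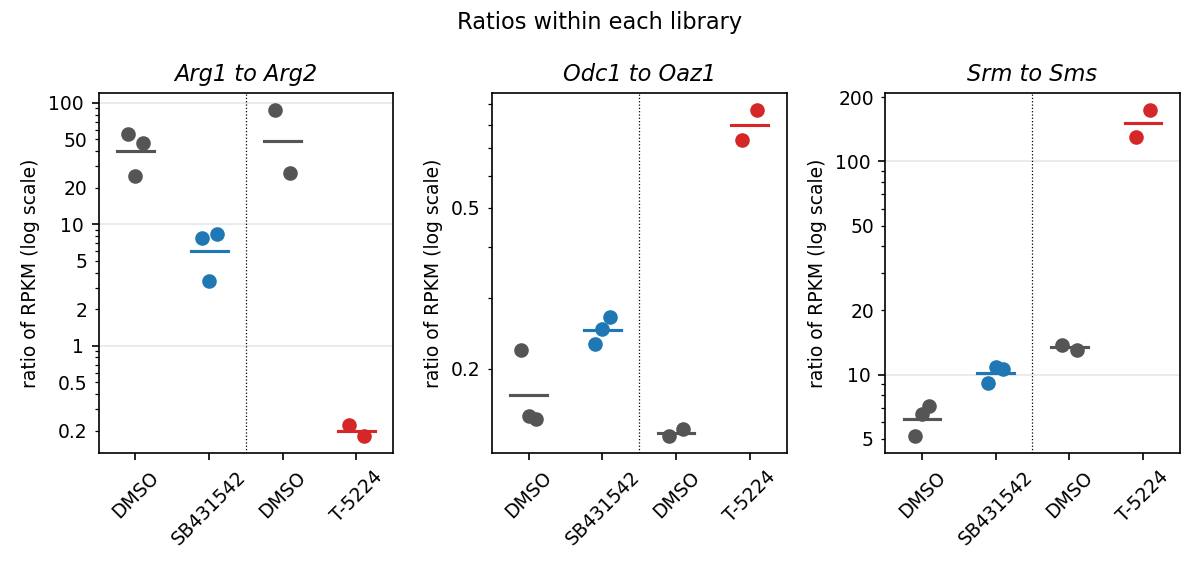
Ratios of RPKM between 2 genes of the same library on log axes, with points for libraries and lines for geometric means. The dotted line divides the SB431542 experiment (left) from the T-5224 experiment (right). Arg1 to Arg2 drops from 26.5 and more to 0.224 and less with T-5224, while Odc1 to Oaz1 and Srm to Sms are higher with each inhibitor than with its DMSO.

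Around these 10 genes, 49 others of arginine and polyamine metabolism were read as 5 lists, and 29 of them were tested in each table. With SB431542, 13 of the 29 were higher, beside 10.2% of all genes tested, and 0 were lower, beside 10.0%, with a median log2 fold change of 0.23. The 13 were each changed by less than 1 on the log2 scale. This count depended on the library left out, from 15 without DMSO replicate 1 to 7 without DMSO replicate 2 and 3, 2 and 4 without SB431542 replicates 1, 2 and 3. Without DMSO replicate 1, 4 genes were also lower (Slc3a2, Azin2, Dhps and Mat2b). Over all genes, leaving out a library moved the counts as well, to 300 to 2163 higher and 433 to 1900 lower. The calls of Slc7a1 and Atp13a2 held under all 15 alternatives other than the log2 limit, and each of the other 11 was lost under 2 to 8 of them. With T-5224, 17 were higher, beside 40.3% of all genes, and 8 were lower, beside 39.4%, with a median of 0.34. The 25 that passed stand beside 79.7% of all genes, which is near the background. Beyond a log2 fold change of 1, 6 were higher, beside 10.4%, and 0 were lower, beside 10.6%.

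Of the other polyamine enzymes, 4 of 8 were tested. None passed with SB431542, where 20.2% of all genes did, while 1 was higher and 1 lower with T-5224, where 79.7% did. Smox, the spermine oxidase, was at 3.42 and 4.26 RPKM with DMSO and 8.68 and 8.64 RPKM with T-5224, a log2 fold change of 1.09 ± 0.10 (SE, adjusted p = 1.34e-06, limma). The gene that fell was Amd2, which repeats the values of Amd1. With SB431542 the extremes of this list were Paox, the oxidase of acetylated polyamines, at a log2 fold change of 0.28 (adjusted p = 0.0759, limma) and Azin2 at -0.17 (adjusted p = 0.451, limma).

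Of the transporters, 5 of 12 were tested. With SB431542, 3 were higher and 0 lower, beside 10.2% and 10.0% of all genes, and with T-5224, 3 were higher and 1 lower, beside 40.3% and 39.4%. Slc7a1, a carrier of arginine and other cationic amino acids, was at 54.6, 60.3 and 58.7 RPKM with DMSO and 77.1, 84.1 and 81.9 RPKM with SB431542 (log2 0.48 ± 0.06, adjusted p = 0.00257, limma). It was at 29.5 and 29.0 RPKM with DMSO and 124 and 117 RPKM with T-5224 (log2 2.03 ± 0.06, adjusted p = 5.05e-11, limma). The groups did not overlap in either experiment. Atp13a2, a lysosomal polyamine exporter, also rose with both, by 0.63 ± 0.11 with SB431542 and 0.41 ± 0.07 with T-5224 on the log2 scale (adjusted p = 0.00772 and 0.000153, limma).

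Slc3a2, the heavy chain that several amino acid carriers share, was at 105 and 103 RPKM with DMSO and 595 and 568 RPKM with T-5224 (log2 2.47 ± 0.05, adjusted p = 7.14e-12, limma). With SB431542 its log2 fold change was -0.18 (adjusted p = 0.0914, limma). Slc25a15, the mitochondrial ornithine carrier, was higher with SB431542 (log2 0.47 ± 0.11, adjusted p = 0.0224, limma). With T-5224 its value was -0.12 (adjusted p = 0.181, limma). Atp13a3, another polyamine transporter, fell by 0.52 ± 0.08 with T-5224 (adjusted p = 6.91e-05, limma).

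Spermidine is also the source of hypusine, the modified lysine of the translation factor eIF5A. All 4 genes of that route were tested. With SB431542, 2 were higher, beside 10.2% of all genes. With T-5224, 2 were higher and 1 lower, beside 40.3% and 39.4%. Eif5a, at 720 RPKM with DMSO in the SB431542 table, rose by 0.23 ± 0.05 with SB431542 and 0.34 ± 0.05 with T-5224 on the log2 scale (adjusted p = 0.0232 and 0.000125, limma). The hydroxylase Dohh rose by 0.26 ± 0.07 and 0.39 ± 0.06 (adjusted p = 0.0359 and 0.000137, limma). With SB431542, both calls were lost with no filter on low values (Eif5a adjusted p = 0.0918, Dohh 0.0566, limma), under a replicate block and without any 1 of the SB431542 libraries or DMSO replicate 2. Eif5a2 fell by 0.61 ± 0.09 with T-5224 (adjusted p = 9.17e-05, limma), and Dhps, the deoxyhypusine synthase, did not pass with either inhibitor (adjusted p = 0.878 and 0.695, limma).

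Of the enzymes that handle arginine, ornithine and proline, 7 of 15 were tested. With SB431542, 3 were higher and 0 lower, beside 10.2% and 10.0% of all genes, and with T-5224, 6 were higher and 1 lower, beside 40.3% and 39.4%. Pycr1 and Aldh18a1, which act in proline synthesis from glutamate, rose with T-5224. Pycr1, the pyrroline-5-carboxylate reductase of mitochondria, was at 4.95 and 4.30 RPKM with DMSO and 46.1 and 45.4 RPKM with T-5224 (log2 3.17 ± 0.08, adjusted p = 1.78e-11, limma). Aldh18a1, which makes pyrroline-5-carboxylate, was at 40.3 and 39.1 RPKM with DMSO and 149 and 143 RPKM with T-5224 (log2 1.87 ± 0.05, adjusted p = 6.61e-11, limma). Both T-5224 libraries lay well above both DMSO libraries for each of these genes.

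Aldh18a1 also rose with SB431542, by 0.33 ± 0.09 (adjusted p = 0.0368, limma), as did Ass1, the argininosuccinate synthase, by 0.31 ± 0.06 (adjusted p = 0.0132, limma), and Oat, the ornithine aminotransferase, by 0.33 ± 0.09 (adjusted p = 0.0419, limma). With no filter on low values, Aldh18a1 (adjusted p = 0.068, limma) and Oat (adjusted p = 0.077, limma) did not pass. Oat also lost its call with quantile normalization, with no trend and under a replicate block, and Ass1 lost it under the block. Of the transcript of Ass1, 94.1% was found elsewhere in mm9, and its DMSO mean was 4.33 times as high in the SB431542 table as in the other, so its level is uncertain like those of Odc1 and Oaz1. Asl, the argininosuccinate lyase that releases arginine, was at 11.8 and 10.9 RPKM with DMSO and 6.17 and 5.54 RPKM with T-5224, and fell by 0.90 ± 0.08 (SE, adjusted p = 1.31e-06, limma). With SB431542 its value was -0.10 (adjusted p = 0.324, limma).

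The last list holds the supply of S-adenosylmethionine and the salvage of methylthioadenosine, the by-product of Srm and Sms. Of its 10 genes, 9 were tested. With SB431542, 5 were higher and 0 lower, beside 10.2% and 10.0% of all genes. With T-5224, 5 were higher and 4 lower, and these 9 stand beside the 79.7% of all genes that passed. Got1, the cytosolic aspartate aminotransferase, was higher with SB431542 (log2 0.40 ± 0.07, adjusted p = 0.00991, limma). It was at 59.9 and 55.7 RPKM with DMSO and 161 and 154 RPKM with T-5224 (log2 1.44 ± 0.06, adjusted p = 8.87e-10, limma). Mtap, the first enzyme of the salvage, was at 89.9 and 84.4 RPKM with DMSO and 49.2 and 46.8 RPKM with T-5224, and fell by 0.85 ± 0.06 (SE, adjusted p = 7.66e-08, limma). The lowest value of this list with SB431542 was that of Apip at -0.12 (adjusted p = 0.323, limma).

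**Figure D5:**
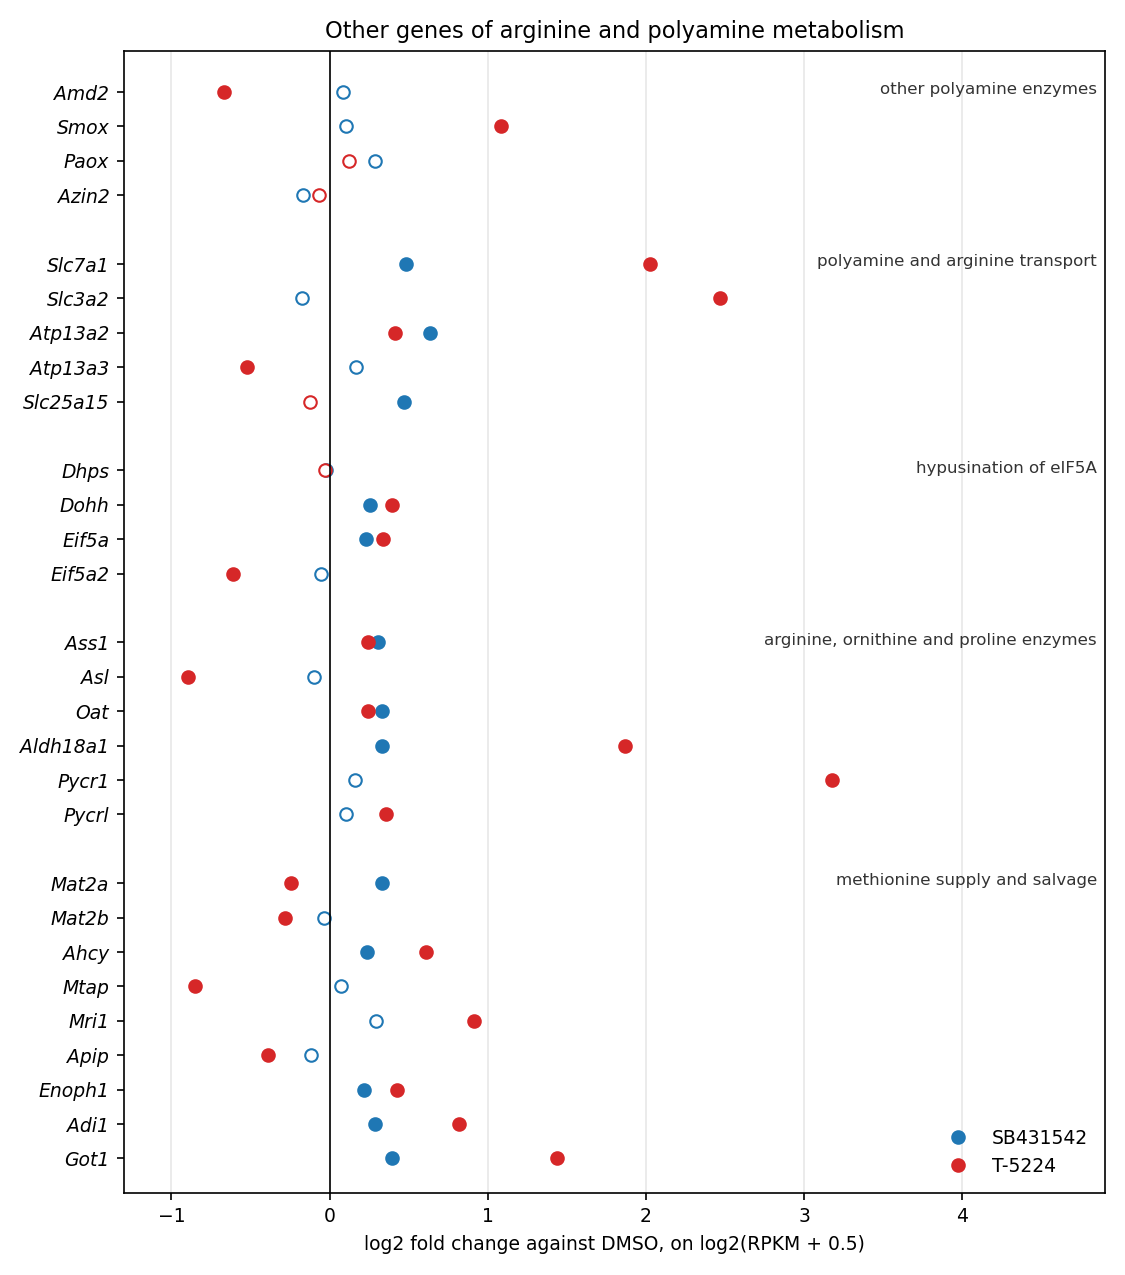
Log2 fold change against DMSO on log2(RPKM + 0.5) for 28 of the 29 other genes tested, grouped by role, with SB431542 in blue and T-5224 in red. Filled points passed at an adjusted p under 0.05 and open points did not. Pycr1, Slc3a2, Slc7a1 and Aldh18a1 lie farthest to the right with T-5224, and Asl and Mtap lie farthest to the left.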

How the data were processed

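RNA-seq libraries (TruSeq Stranded mRNA, HiSeq2000) were made from biological replicates of ASZ001 cells. Per the study's methods, TopHat placed the reads on mm9, and the authors computed the deposited RPKM values with analyzeRepeats.pl of HOMER, 1 table per experiment. How reads with several matches were counted is not given in the sources used here. The authors tested differences with DESeq2. No test on read counts was run here, and reads worked out from RPKM serve only for the depth behind values and the ratio of Arg2. All 10 columns of RPKM were read, and the T-5224 table numbers its DMSO libraries 1 and 2. Gene names that had turned into dates (22 of 17680 and 23 of 16742) were left out.

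Treated and DMSO libraries of each table were compared on log2(RPKM + 0.5) by limma (version 3.58.1, R 4.3.3), letting the variance follow the mean, over genes with a mean of at least 1 RPKM (10842 and 10809), adjusted by Benjamini-Hochberg. The limma p-values rest on the spread between these cultures, with each gene's variance drawn toward a trend over all genes. Ratios were compared with two-sided exact permutation tests over libraries in SciPy 1.17.1. The fit was tested on simulated data. The 10 genes and the 5 lists were chosen with earlier results of these data known. Other genes named are those past a log2 fold change of 1 in either table, the largest rise and fall of each list and the 5 nearest to Arg1. The values of 1 gene of the lists are not reported here. Eif5a, Dhps, Oat, Ass1, Slc25a15, Mat2a and the genes that were lower without DMSO replicate 1 were named after their values were seen.

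Depth was estimated from genes shorter than 250 bases, whose low values are multiples of what 1 read is worth (99.0% to 100% of values within 0.05 of a read). Gene positions come from GENCODE for NCBIM37, on which mm9 is based. Copies were found with BLAST 2.17.0 of each longest transcript (95% identity or more over at least 100 bases, outside the gene). Promoter sequences are from RefSeq (GRCm38.p6). DMSO and SB431542 share replicate numbers 1 to 3, but same-numbered libraries deviated from their group means with correlations of -0.148, 0.151 and -0.0949, so the numbers were not taken as pairs. Alternatives were pseudocounts of 0.1 and 1, no filter or a mean of at least 5 RPKM, median centring, quantile normalization, no trend, an unadjusted p, a log2 limit of 1, a replicate block, and each library left out in turn.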

Additional observations from a re-analysis of the deposited data

Results flagged for a closer look

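In 4 of the surrounding genes, every T-5224 library moved one way from its DMSO libraries and every SB431542 library the opposite way. Groups did not overlap, in either direction, in 45.1% of all genes tested with SB431542 and 89.7% with T-5224. The share of all genes with opposite directions was not worked out, so the count is not read as particular to these genes. The difference between the inhibitors was not tested, since the tables were normalized separately. Slc3a2 had a log2 fold change of 2.47 with T-5224 and -0.18 with SB431542. Atp13a3 was at -0.52 with T-5224 and 0.16 with SB431542. Mat2a, which makes S-adenosylmethionine, was at -0.24 with T-5224 and 0.33 with SB431542, and passed in both experiments (adjusted p = 0.00455 and 0.0112, limma). Its calls were lost without SB431542 replicate 2 or 3 and, in the other experiment, without T-5224 replicate 2. Of its transcript, 47.5% was found elsewhere in mm9, so its level is uncertain. Mtap was at -0.85 with T-5224 and 0.07 with SB431542. Slc3a2, Atp13a3 and Mtap did not pass with SB431542 (adjusted p = 0.0914, 0.157 and 0.314, limma).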

How the results depend on the processing

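The precision is set by 3 and 2 libraries per group, and for Arg2 by few reads with DMSO. Apart from settings that leave out a library, the log2 fold changes of the 10 genes were alike in 169 cases, lost the call in 10 and gained one in 4. Alike means the same direction and side of the threshold. For Arg1, which was not tested, it means the same direction and a shift smaller than the SD within groups. Arg1 with T-5224 moved further, to -2.32 and -1.66 with pseudocounts of 0.1 and 1. Arg1, Arg2 and Sms with T-5224, and both arginases with SB431542, gave no value at a mean of at least 5 RPKM. Causes were not tested.

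With a log2 limit of 1, the 3 members and the 13 surrounding genes higher with SB431542 became 0, beside 0.231% of all genes. The 4 members and the 8 surrounding genes lower with T-5224 became 0, beside 10.6% of all genes. The 17 surrounding genes higher with T-5224 became 6, and the 4 members higher other than Arg2 became 3, beside 10.4% of all genes. With an unadjusted p under 0.05 from limma, 1 member (Sms) and 1 surrounding gene (Slc3a2) were lower with SB431542, beside at least 10.0% of all genes. The call of Azin1 with T-5224 was lost with no filter (adjusted p = 0.1, limma) and with quantile normalization (log2 0.28, adjusted p = 0.0546, limma). Arg2 with SB431542 passed with median centring (log2 0.51, adjusted p = 0.0448, limma).

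When single libraries were left out, the counts with SB431542 ranged from 3 to 3 for members higher, 0 to 1 for members lower (Oaz2, without DMSO replicate 1), 2 to 15 for surrounding genes higher and 0 to 4 for those lower. Over all genes, 300 to 2163 were higher and 433 to 1900 lower. With T-5224, leaving out a library leaves 1 in a group, so log2 fold changes are given in place of counts. They ranged from 1.83 to 1.86 for Odc1, 2.44 to 2.46 for Srm, 2.55 to 2.665 for Sat1 and 0.14 to 0.50 for Azin1. For Amd1 they were -0.79 to -0.54, for Sms -0.95 to -0.64, for Oaz1 -0.68 to -0.47 and for Oaz2 -0.61 to -0.54. With 1 library left in a group, that library is assumed to vary like the other group. The 1 log2 fold change to turn its direction was that of Amd1 with SB431542, at -0.028 without DMSO replicate 1, where the range over libraries left out was -0.028 to 0.14.

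With the replicate number as a block, 6 surrounding genes were higher with SB431542 in place of 13, and 572 genes in all were higher and 699 lower in place of 1107 and 1085. Arg2 passed (adjusted p = 0.0485, limma), and 3 members were higher and 0 lower as without the block. DMSO replicate 1 correlated best with SB431542 replicate 3 and DMSO replicate 3 with SB431542 replicate 1, so not every library was nearest to its own number. No paired analysis was run for T-5224, whose DMSO libraries carry other numbers in the labels than in the table.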
